A study of Rattus norvegicus with 12 samples.

Results

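The genes described here are the receptors, cytoskeletal proteins, collagens, proteoglycans and matrix regulators by which stellate cells and fibroblasts are recognised in liver. They were chosen by name as a list of 37, with earlier results of these data known. Of the 37, 36 had a probe on the array, and 33 of those were among the 26542 genes tested in all. Probes were matched by gene symbol, including the suffix for predicted genes and older symbols, or by description. The gene without a probe was Acta2, smooth muscle alpha-actin; a probe described as similar to it lies elsewhere in the genome in these files and was not counted. Stellate cells are the vitamin A storing mesenchymal cells of the liver sinusoid; when activated, as in injury or culture, they take on a fibroblast-like state and deposit fibrillar collagen. Hepatocytes make little of that collagen but secrete other matrix proteins, and a hepatocyte preparation made by collagenase perfusion can carry some stellate cells and portal fibroblasts with it. Dexamethasone is a synthetic glucocorticoid, a ligand of the glucocorticoid receptor, and is itself a common component of hepatocyte culture media.

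RNA came from hepatocytes of Sprague-Dawley rats aged 11 weeks, isolated by collagenase perfusion, plated in serum and then kept without serum. The 4 groups of 3 arrays were male vehicle and female vehicle (0.01% ethanol for 6 h) and male dexamethasone and female dexamethasone (100 nM for 6 h, which the labels write as "nm"). All 12 cultures shared strain, age, plating and serum withdrawal, and the labels name no genetic change. Sex was taken from the sample titles, because a separate label field reads male for every sample, including the 6 titled female. Whether the 3 replicates of a group were separate animals is not stated in the labels, so p-values speak only of how these samples vary, and that variation may be technical.

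Each array was a 1-colour Agilent array. A level is the log2 processed signal minus the 75th percentile of that array, so a level of 0 is the signal at that percentile, and 1 unit is a doubling. Levels of different genes come from different probes and are not compared with each other. A difference is female minus male or dexamethasone minus vehicle, given with the standard error (SE) of a fit across all genes, and adjusted p-values are from limma with Benjamini-Hochberg adjustment over all 26542 genes, called at 0.05.

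Slide and detection differed between groups in ways that touch every comparison below. Slide 1 carried all of male vehicle plus replicate 1 of male dexamethasone. Slide 2 carried the other male dexamethasone arrays and replicates 1 and 2 of female vehicle, and slide 3 the last female vehicle array and all of female dexamethasone. On slide 1, 46.6% to 67.0% of spots were well above background, against 72.7% to 80.6% on the others. The dimmest probe that counted as well above background had a level of -3.49, -3.37 and -4.60 on the 3 male vehicle arrays and of -7.23 to -5.74 on the other 9, so the limit of detection was highest in male vehicle. Where no array of a group was well above background, a called difference is given with a bound ("at least N-fold"), and the fitted difference beside it is no measured size. The bound is the brighter group's mean over the mean, per dim array, of the higher of that dimmest measured level and the probe's own level. All 10 hepatocyte markers listed, such as fibrinogen beta and alpha-1-microglobulin, were above background on every array. A probe for an Xist-like RNA read 0.46 to 1.16 on the 6 arrays titled female and -6.76 to -5.30 on the 6 titled male, which goes with the titles.

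The probes used for these genes are 60 bases long, and 5 of them map across a gap, as a probe over an exon junction does: their ends lie further apart in the genome (build rn3, as the files give it) than the probe is long. The probe of Dcn, decorin, a proteoglycan that coats collagen fibrils and passed the test between the sexes, spans chr7:35057602-35061403, and that of Timp1, a metalloproteinase inhibitor that passed in no comparison, spans chrX:12548256-12549259. They are shown as examples of a gene that passed and one that did not.
Dcn: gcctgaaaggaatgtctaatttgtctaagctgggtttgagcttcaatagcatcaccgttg
Timp1: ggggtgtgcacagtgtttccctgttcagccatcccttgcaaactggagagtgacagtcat

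Promoters of members that differed together between the sexes were read from RefSeq on build GRCr8, as the 250 bases before the annotated start. The table held 23 of the 36 members, among them 10 of the 15 that passed in vehicle. The glucocorticoid receptor's inverted repeat, AGAACA and TGTTCT with 3 bases between them, was in 0 of the 23, and in 1 of all 27457 promoters of that length. A single arm, TGTTCT, which lies within that repeat, was found in 21.7% of the 23 and in 17.1% of all. The AP-1 motif TGAGTCA was in 4.35% against 3.98%, the GC box GGGCGG in 39.1% against 32.4%, TATAAA in 13.0% against 13.1%, and the E-box CAGCTG in 17.4% against 11.9%. Both strands were searched in each case. A match is a run of letters, not a bound site, and a match on the other strand shows as its reverse complement. 4 promoters are shown, with every match in capitals: Lrat (chr2:170571213-170571462, minus strand), Col6a1 (chr20:11905440-11905689, plus strand), Igfbp6 (chr7:135154669-135154918, plus strand) and Vim (chr17:81577011-81577260, plus strand).
Lrat: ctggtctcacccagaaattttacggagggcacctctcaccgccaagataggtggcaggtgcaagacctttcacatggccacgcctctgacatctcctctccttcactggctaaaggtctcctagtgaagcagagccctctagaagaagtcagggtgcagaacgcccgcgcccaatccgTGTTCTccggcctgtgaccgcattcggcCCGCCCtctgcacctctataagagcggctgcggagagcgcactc
Col6a1: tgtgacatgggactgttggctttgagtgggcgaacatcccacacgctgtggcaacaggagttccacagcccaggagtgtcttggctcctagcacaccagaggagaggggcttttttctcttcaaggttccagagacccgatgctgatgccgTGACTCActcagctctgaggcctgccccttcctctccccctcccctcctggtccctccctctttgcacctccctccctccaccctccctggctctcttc
Igfbp6: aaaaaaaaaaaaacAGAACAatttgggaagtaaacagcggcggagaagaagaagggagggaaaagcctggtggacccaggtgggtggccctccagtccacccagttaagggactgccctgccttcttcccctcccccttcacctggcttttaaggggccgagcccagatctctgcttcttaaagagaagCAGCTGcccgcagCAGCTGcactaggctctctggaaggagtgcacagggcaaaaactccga
Vim: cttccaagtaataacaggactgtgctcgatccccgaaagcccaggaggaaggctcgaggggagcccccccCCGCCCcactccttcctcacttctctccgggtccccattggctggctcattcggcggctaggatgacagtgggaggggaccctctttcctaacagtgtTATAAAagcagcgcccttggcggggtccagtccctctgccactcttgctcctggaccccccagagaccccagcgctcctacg
The Lrat stretch held 1 single arm and 1 GC box, that of Col6a1 held 1 AP-1 motif, that of Igfbp6 held 1 single arm and 2 E-boxes, and that of Vim held 1 GC box and 1 TATAAA.

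**Figure D1:**
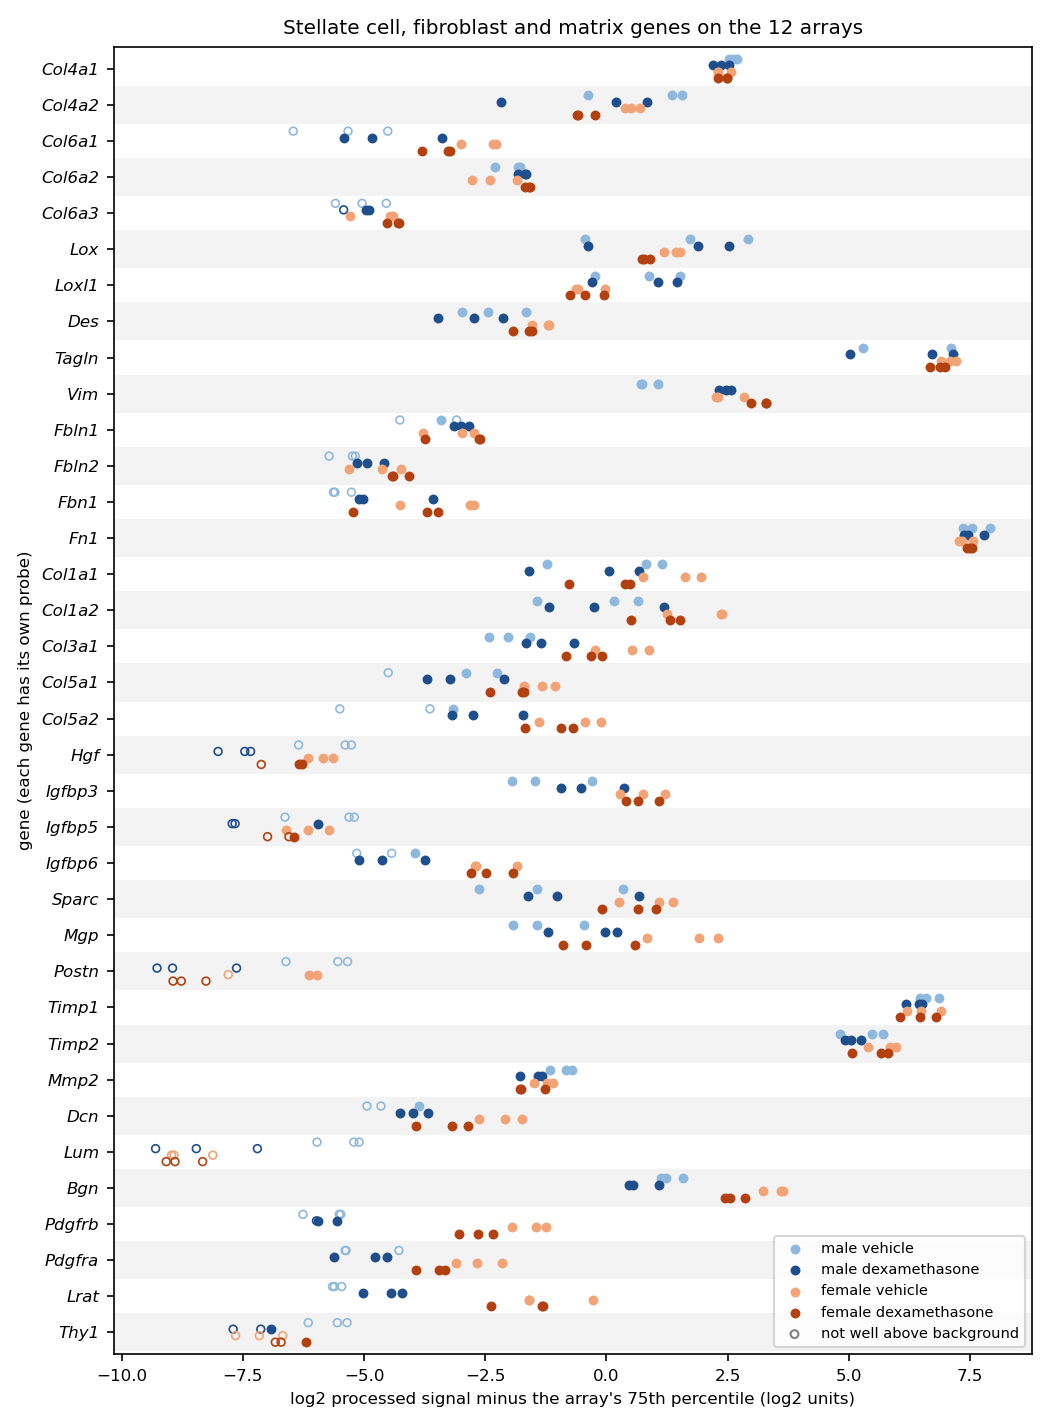
Level of each of the 36 genes on the 12 arrays (x axis, log2 signal minus the 75th percentile of that array; y axis, genes grouped by role); each point is 1 array, colours are the 4 groups and open points were not well above background. Filled points are missing from male vehicle for 12 genes, while Fn1 at 7.28 to 7.92 and Timp1 at 6.05 to 6.90 stay within a narrow band on all arrays.

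Detection differed between the groups, for all spots as for these genes. Of all spots, 46.6% to 56.2% were well above background on each male vehicle array, and 67.0% to 80.6% on each array of the other groups. In male vehicle 18 of the 36 genes were above background on all 3 arrays and 12 on none; in male dexamethasone the counts were 29 and 3, in female vehicle 33 and 2, and in female dexamethasone 31 and 2. 18 genes were above background on all 12 arrays. The 12 undetected in male vehicle were Col6a1, Col6a3, Fbln2, Fbn1, Hgf, Igfbp5, Lrat, Lum, Pdgfra, Pdgfrb, Postn and Thy1. Lum, the proteoglycan lumican, was above background on no array. Postn, the matricellular protein periostin, was measured only on female vehicle replicates 1 and 2, and Thy1, a surface marker of portal fibroblasts, only on male dexamethasone replicate 2 and female dexamethasone replicate 2. These 3 genes were not tested, which left 33.

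In vehicle, the female cultures had more signal for the PDGF receptors, Lrat, Vim, 4 of 5 fibrillar collagen chains, both measured small proteoglycans and 2 of 3 IGF binding proteins. Of the 33 genes, 15 passed the test as higher in females (45.5%) and 0 as lower, where 5.82% of all genes tested passed as higher and 7.96% as lower (13.8% in all). With normexp background correction the split was 15 higher and 5 lower, where 1527 of all 26542 genes passed as higher and 10855 as lower. The median difference over the 33 was 1.20 log2 units, against -0.06 over all genes; it was 0.74 without male vehicle replicate 2, 0.73 over probes above background on all 12 arrays, 0.62 with normexp and 1.85 with slide as a block. 16 of the 33 had all 3 female arrays above all 3 male arrays, against 13.3% of all genes. Since these are bulk cultures, fewer stellate cells or fibroblasts in a culture and less RNA per cell cannot be told apart. Male vehicle lay wholly on slide 1 and female vehicle on slides 2 and 3, so no slide gave a within-slide value. A slide block links them only through male dexamethasone, of which slide 1 held 1 array, replicate 1. Its values for this comparison, the median of 1.85 included, therefore rest on that array. With slide as a block, which the dexamethasone arrays make possible, 4 of the 15 passed (Bgn, Pdgfrb, Col3a1 and Col6a1). Of all genes, 46 then passed as higher and 88 as lower. The other 11 of the 15 kept their direction, from 1.51 for Igfbp3 (adjusted p = 0.45) to 5.06 for Col5a2 (adjusted p = 0.072).

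Both PDGF receptors and Lrat were above background on all female and no male vehicle arrays. Levels of Pdgfrb, the PDGF receptor beta by which stellate cells and pericytes respond to PDGF, were -1.45, -1.24 and -1.95 in female vehicle, and -5.48, -5.51 and -6.26 in male vehicle, where no array was above background. The female mean was at least 4.84-fold higher (fitted difference 4.20 ± 0.28, adjusted p = 2.4e-05; with slide as a block 4.18, adjusted p = 0.021). Lrat, lecithin retinol acyltransferase, makes the retinyl esters that stellate cells store. Its levels were -1.59, -0.27 and -1.59 in female vehicle and -5.65, -5.61 and -5.46 in male vehicle, again below background in all 3 males. That is at least 6.37-fold higher in females (4.43 ± 0.39, adjusted p = 0.00024; with slide as a block 3.95, adjusted p = 0.056). A second Lrat probe differed by 0.94 ± 0.41 (adjusted p = 0.15), so the call for Lrat in vehicle rests on the brighter probe. Pdgfra, the PDGF receptor alpha of fibroblasts, read -2.66, -2.16 and -3.10 in female vehicle and -5.37, -5.39 and -4.28 in male vehicle, at least 2.11-fold higher in females (2.37 ± 0.38, adjusted p = 0.004).

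The cytoskeletal genes were split. Vim, vimentin, the intermediate filament of mesenchymal cells, read 2.31, 2.84 and 2.27 in female vehicle and 0.71, 1.07 and 0.74 in male vehicle, a difference of 1.63 ± 0.19 (adjusted p = 0.0011) with no overlap. Des, desmin, an intermediate filament of rodent stellate cells and muscle, read -1.20, -1.19 and -1.54 in female vehicle and -1.66, -2.98 and -2.44 in male vehicle. The Des groups did not overlap, but its difference of 1.05 ± 0.37 did not pass (adjusted p = 0.08; without male vehicle replicate 1, 1.40, adjusted p = 0.027). Tagln, the actin-binding protein transgelin of contractile cells, read 6.91 to 7.22 in female vehicle and 5.30 and 7.10 in male vehicle replicates 2 and 3. Its spot on male vehicle replicate 1 was marked as an outlier and left out, and the groups overlapped (0.87 ± 0.61, adjusted p = 0.37).

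Of the 5 fibrillar collagen genes, 4 were higher in females. Col3a1, the collagen III chain abundant in early scar and reticular fibres, read 0.87, 0.53 and -0.23 in female vehicle and -2.02, -2.43 and -1.58 in male vehicle (2.40 ± 0.35, adjusted p = 0.0029; with slide as a block 3.55, adjusted p = 0.034). Col5a2, a chain of the collagen V that nucleates fibrils, read -0.45, -0.11 and -1.40 in female vehicle and -3.64, -5.50 and -3.16 in male vehicle, where only replicate 3 was above background (3.45 ± 0.60, adjusted p = 0.0057). Its 2 further probes differed by 3.20 and 3.08 (adjusted p = 0.0035 and 0.0026). No male array reached the lowest female array for either gene. Col1a2, the alpha2 chain of collagen I, read 2.39, 2.36 and 1.25 in female vehicle and 0.65, -1.43 and 0.15 in male vehicle (2.21 ± 0.65, adjusted p = 0.046), and its second probe differed by 2.27 (adjusted p = 0.017). Col5a1, the other collagen V chain, read -1.06, -1.33 and -1.69 against -2.25, -4.50 and -2.90 (1.85 ± 0.54, adjusted p = 0.045), with male replicate 2 below background. The calls for Col1a2 and Col5a1 were each lost when any 1 of 9 of the 12 arrays was left out, among them male vehicle replicates 2 and 3 and all 6 female arrays; without male vehicle replicate 2 the differences were 1.60 and 1.21. Col1a1, the alpha1 chain of collagen I, read 1.95, 1.63 and 0.75 in female vehicle and 1.15, -1.22 and 0.81 in male vehicle, and the groups overlapped (1.20 ± 0.70, adjusted p = 0.28). The other 2 Col1a1 probes, within the same stretch of chr10:83652273-83652606 (rn3), differed by -0.08 and -0.49, so the 3 probes of this gene disagree in sign.

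Among the collagens of basement membranes and beaded filaments, 1 of 5 passed. Col6a1, a collagen VI chain, read -2.33, -2.28 and -3.00 in female vehicle and -4.51, -5.33 and -6.46 in male vehicle, where no array was above background. The females were at least 2.43-fold higher (2.89 ± 0.55, adjusted p = 0.008; with slide as a block 4.86, adjusted p = 0.049). Col6a2 and Col6a3, the partner chains of collagen VI, differed by -0.37 ± 0.23 and 0.34 ± 0.30 (adjusted p = 0.30 and 0.49), the latter with no male array above background, and the basement membrane chains Col4a1 and Col4a2 by -0.23 ± 0.15 and -0.32 ± 0.69 (adjusted p = 0.33 and 0.79). The lysyl oxidases Lox and Loxl1, which cross-link collagen and elastin, differed by -0.03 ± 0.82 and -1.13 ± 0.49 (adjusted p = 0.99 and 0.15), with overlapping arrays.

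Both measured small proteoglycans were higher in females. Bgn, biglycan, which binds collagen and TGF-beta, read 3.60, 3.64 and 3.23 in female vehicle and 1.59, 1.12 and 1.23 in male vehicle, above background on every array (2.18 ± 0.22, adjusted p = 0.00047; with slide as a block 2.88, adjusted p = 0.021). Dcn read -2.10, -1.74 and -2.63 in female vehicle and -4.94, -4.65 and -3.87 in male vehicle, where only replicate 3 was above background (2.33 ± 0.35, adjusted p = 0.0031). The female arrays lay above all male arrays for each gene. Mgp, matrix Gla protein, an inhibitor of calcification, read 1.92, 2.30 and 0.83 in female vehicle and -1.92, -0.46 and -1.43 in male vehicle (2.95 ± 0.54, adjusted p = 0.007). Sparc, a collagen-binding matricellular protein, read 1.08, 1.38 and 0.26 against 0.34, -2.62 and -1.44; male replicate 1 lay inside the female range and the difference of 2.15 ± 0.74 did not pass (adjusted p = 0.078).

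The growth factor group held 2 further calls. Igfbp3, the main carrier of IGFs in plasma, made by non-parenchymal liver cells, read 0.29, 0.75 and 1.20 in female vehicle and -1.48, -0.30 and -1.95 in male vehicle (1.99 ± 0.44, adjusted p = 0.016), and its second probe gave 1.91 (adjusted p = 0.0065). Without female vehicle replicate 3 the adjusted p for Igfbp3 was 0.06. Igfbp6, which prefers IGF-II, read -2.72, -2.69 and -1.84 in female vehicle and -4.43, -5.15 and -3.95 in male vehicle, where only replicate 3 was above background (2.09 ± 0.41, adjusted p = 0.0095). Igfbp5 and Hgf, the hepatocyte growth factor that stellate cells supply to hepatocytes, were measured on all 3 female vehicle arrays and on no male one, but at levels (-6.61 to -5.72 and -6.16 to -5.64) under the dimmest that male vehicle could register, so no fold is given.

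Among the elastic fibre and adhesion glycoproteins, Fbn1, the microfibril protein fibrillin-1, read -2.73, -2.82 and -4.26 in female vehicle and -5.63, -5.60 and -5.26 in male vehicle, below background on all 3. That is at least 1.46-fold higher in females (2.23 ± 0.56, adjusted p = 0.026; second probe 1.18, adjusted p = 0.046); leaving out any 1 of replicates 1 and 2 of either vehicle group ended the call (adjusted p up to 0.093). Fn1, fibronectin, which hepatocytes secrete, differed by -0.22 ± 0.18 (adjusted p = 0.45), and Fbln1 and Fbln2, the fibulins, by 0.42 ± 0.39 and 0.65 ± 0.27 (adjusted p = 0.51 and 0.14), with no male array above background for Fbln2. The metalloproteinase inhibitors Timp1 and Timp2 differed by -0.11 ± 0.23 and 0.41 ± 0.27 (adjusted p = 0.80 and 0.34). Mmp2, gelatinase A, differed by -0.38 ± 0.21 on its brighter probe (adjusted p = 0.25) and by 2.79 ± 0.33 on a second probe above background on 9 arrays (adjusted p = 0.001), so its direction depends on the probe.

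**Figure D2:**
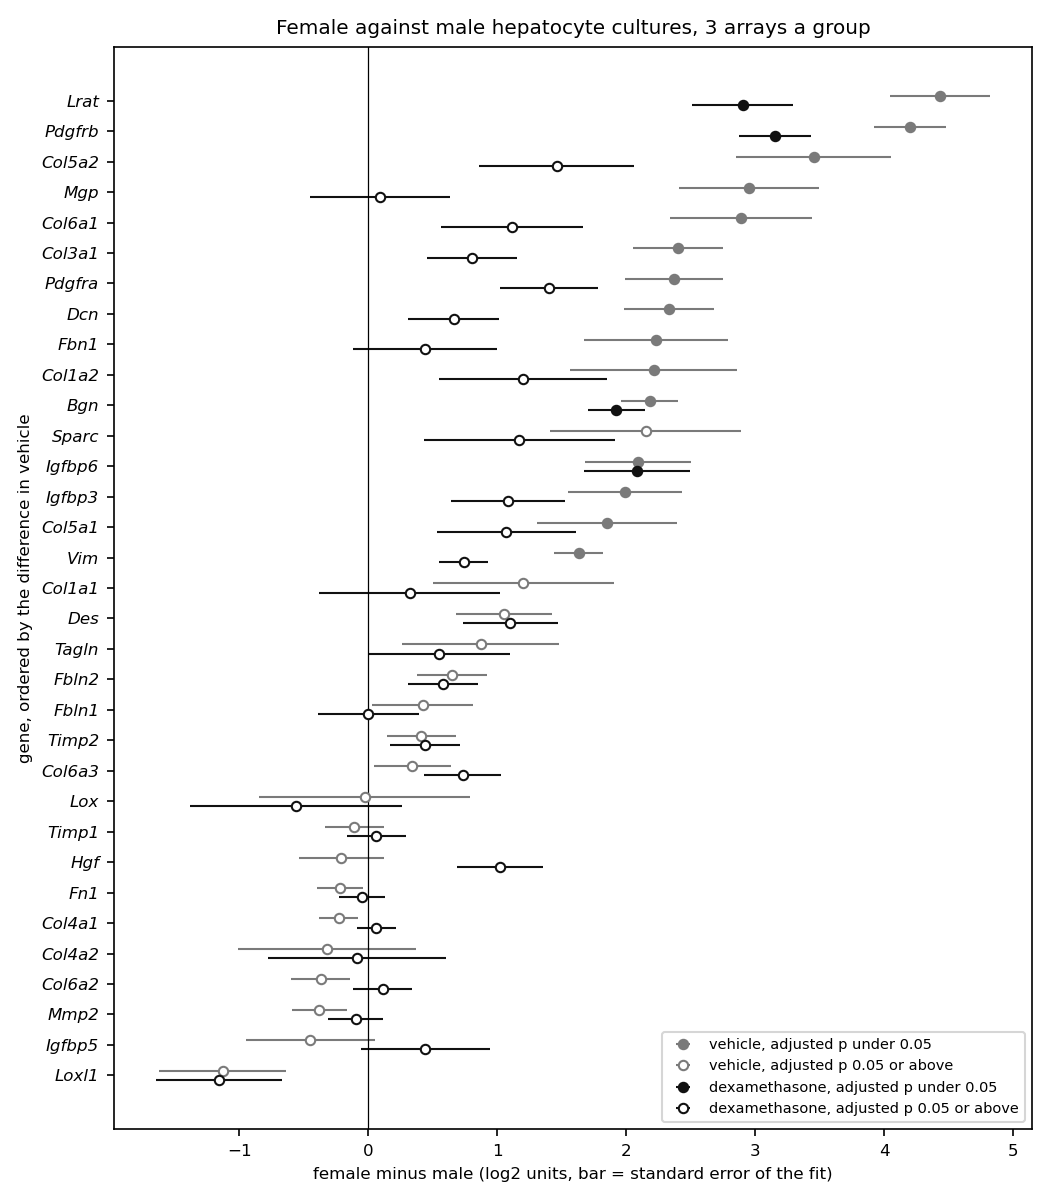
Female minus male difference (x axis, log2 units) of the 33 tested genes (y axis, ordered by the difference in vehicle) in vehicle (grey) and dexamethasone (black); points are estimates over 3 arrays a group, bars are SEs of the fit, filled points passed an adjusted p of 0.05. In vehicle the 15 filled points lie between 1.63 (Vim) and 4.43 (Lrat), those of Lrat, Pdgfrb, Col6a1, Pdgfra and Fbn1 against male values below background, and in dexamethasone the 4 filled points lie between 1.92 (Bgn) and 3.15 (Pdgfrb).

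In dexamethasone the same comparison left 4 genes past the test, all higher in females: Pdgfrb, Lrat, Igfbp6 and Bgn, 12.1% of the 33 where 1.18% of all genes passed as higher and 2.9% in either direction. 0 passed as lower (1.73% of all genes). The median difference over the 33 was 0.66, against 0.02 over all genes (0.21 over probes above background on all 12 arrays, 0.25 with normexp and 1.51 with slide as a block), and 12 of the 33 had all female arrays above all male arrays, against 16.6% of all genes. Pdgfrb read -3.05, -2.64 and -2.34 in female dexamethasone and -5.98, -5.56 and -5.94 in male dexamethasone, where replicates 2 and 3 were above background (3.15 ± 0.28, adjusted p = 0.00032). Lrat, now above background in all 3 males, read -2.37, -1.30 and -1.33 against -5.03, -4.22 and -4.45 (2.90 ± 0.39, adjusted p = 0.0053), and its second probe gave 2.16 (adjusted p = 0.021). Bgn read 2.55, 2.86 and 2.45 against 1.08, 0.55 and 0.47 (1.92 ± 0.22, adjusted p = 0.0018).

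The groups were separate for all 3 of these. Igfbp6 read -2.80, -2.49 and -1.93 in female dexamethasone and -4.62, -5.10 and -3.75 in male dexamethasone (2.08 ± 0.41, adjusted p = 0.025); leaving out male dexamethasone replicate 1 or 2, or female dexamethasone replicate 2 or 3, ended its call (adjusted p up to 0.10). A slide block links the sexes here only through female vehicle, of which slide 3 held 1 array, replicate 3. With slide as a block 0 of the 33 passed, where 8 of all genes passed as higher and 14 as lower. The Bgn difference was then 2.50 (adjusted p = 0.053). Genes with no overlap and a mean difference of at least 1 log2 unit that did not pass were few: Pdgfra differed by 1.40 ± 0.38 (adjusted p = 0.077; without male vehicle replicate 3, 0.042), Col5a2 by 1.46 ± 0.60 (0.22), Des by 1.10 ± 0.37 (0.14) and Igfbp3 by 1.08 ± 0.44 (0.22). Hgf did not overlap either, but was at least 1.03-fold higher in females, a bound close to no difference (fitted difference 1.02, adjusted p = 0.13). Its levels were -7.12, -6.27 and -6.35 in female dexamethasone, with replicate 1 below background, and -7.46, -7.34 and -8.01 in male dexamethasone, all below background. Vim differed by 0.74 ± 0.19 (adjusted p = 0.071; 0.033 with the replicate number as a block).

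In the male response to dexamethasone, Vim rose in all 3 replicates. Of the 33 genes 1 passed as higher and 1 as lower, 3.03% each, where 5.21% of all genes passed as higher and 4.88% as lower (10.1% in all); the median change was 0.04 against -0.07 over all genes, and ran from -0.18 without male vehicle replicate 2 to 0.51 without male dexamethasone replicate 2. Vim read 2.33, 2.47 and 2.58 in male dexamethasone, a 3.07-fold rise over vehicle (1.62 ± 0.19, adjusted p = 0.0014; with slide as a block 1.49, adjusted p = 0.042; within slide 1, with 1 dexamethasone array, 1.49, adjusted p = 0.45). The lower call was Hgf, at -5.26, -5.39 and -6.35 in vehicle and -7.46, -7.34 and -8.01 in dexamethasone. None of these 6 Hgf values was above background, and the limit of detection differed between the groups, so this call (-1.93 ± 0.33, adjusted p = 0.0068) gives no measured change. 4 genes had all dexamethasone arrays above all vehicle arrays (11.3% of all genes did) and 4 had them all below (14.4%, and 25.7% in either direction).

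Same-numbered vehicle and dexamethasone arrays of a sex deviated together, so the replicate number was taken to pair them. With the 6 pairs as a block, 4 genes passed as higher in males (Vim; Col5a2, 1.54, adjusted p = 0.033; Col6a1, 0.89, adjusted p = 0.017; Igfbp3, 0.88, adjusted p = 0.011) and 5 as lower (Hgf; Bgn, -0.61, adjusted p = 0.027; Col4a2, -1.23, adjusted p = 0.024; Mmp2, -0.60, adjusted p = 0.031; Igfbp5, -1.39, adjusted p = 0.041). In 4 of those 9, Hgf, Igfbp5, Col6a1 and Col5a2, the vehicle level was below background on at least 2 of 3 arrays. Of all 26542 genes, the fit with pairs passed 1909 as higher and 2267 as lower in males, against 1382 and 1296 without pairs. Bgn and Mmp2, above background throughout on the probes used, fell in every pair, Bgn by 0.51, 0.58 and 0.75 and Mmp2 by 0.69, 0.49 and 0.62. A second Mmp2 probe, above background on 9 arrays, differed by 0.90 ± 0.33 in the fit without pairs (adjusted p = 0.11). The direction for Mmp2 in males thus depends on the probe. Lrat differed by 1.01 ± 0.39 without overlap, but did not pass (adjusted p = 0.13) and was below background on all 3 vehicle arrays, so the size is not measured; its second probe gave -0.91.

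In the female response, 0 of the 33 genes passed as higher and 2 as lower (6.06%), where 3% of all genes passed as higher and 1.13% as lower (4.13% in all). The median change was -0.45, against -0.02 over all genes; it was -0.24 without female vehicle replicate 2, -0.71 without female vehicle replicate 3 and -0.19 with slide as a block. Pdgfrb fell by 1.13 ± 0.28 (adjusted p = 0.046) and Bgn by 0.87 ± 0.22 (adjusted p = 0.049), 2.19-fold and 1.83-fold. Each fell in all 3 pairs: Pdgfrb changed by -1.60, -1.39 and -0.40 and Bgn by -1.05, -0.78 and -0.78. Both calls are marginal. Each was lost when any 1 of 9 of the 12 arrays was left out, any of the 6 female arrays among them (adjusted p up to 0.18 for Pdgfrb and 0.17 for Bgn), and within slide 3, which holds female vehicle replicate 3 and all female dexamethasone arrays, the changes were -0.73 (adjusted p = 0.31) and -0.61 (0.24); with slide as a block they were the same size (adjusted p = 0.53 and 0.37).

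With the pairs as a block, 658 of all 26542 genes passed as lower in females and 1136 as higher (299 and 797 without pairs). Of the 33 genes, 4 passed as lower and 1 as higher. The lower ones were Col1a1 (-1.41, adjusted p = 0.0067), Bgn (adjusted p = 0.016), Col6a1 (-0.89, adjusted p = 0.027) and Mgp (-1.93, adjusted p = 0.034); the higher one was Vim (0.72, adjusted p = 0.049), and Pdgfrb then had an adjusted p of 0.058. Levels of Mgp in female dexamethasone were -0.43, 0.59 and -0.90, all below the 3 vehicle arrays, and the 3 pairs changed by -2.35, -1.71 and -1.72. Levels of Col1a1 in female dexamethasone were 0.39, 0.48 and -0.78, and its pairs changed by -1.56, -1.15 and -1.53. In the fit without pairs neither passed (adjusted p = 0.077 and 0.35). The other 2 Col1a1 probes, above background on all 12 arrays, changed by -0.55 and -0.09 in that fit (adjusted p = 0.074 and 0.92). The size for Col1a1 thus depends on the probe. 10 of the 33 genes had all dexamethasone arrays below all vehicle arrays (17% of all genes did) and 2, Vim and Col6a2, had them all above (16.8%, and 33.8% in either direction). Those with a mean change of at least 1 log2 unit that did not pass, beside Mgp and Col1a1, were Dcn (-3.92, -2.85 and -3.18 in dexamethasone; -1.16 ± 0.35, adjusted p = 0.10) and Col4a2 (-0.24, -0.59 and -0.60 against 0.51, 0.39 and 0.69 in vehicle; -1.01 ± 0.69, adjusted p = 0.55).

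**Figure D3:**
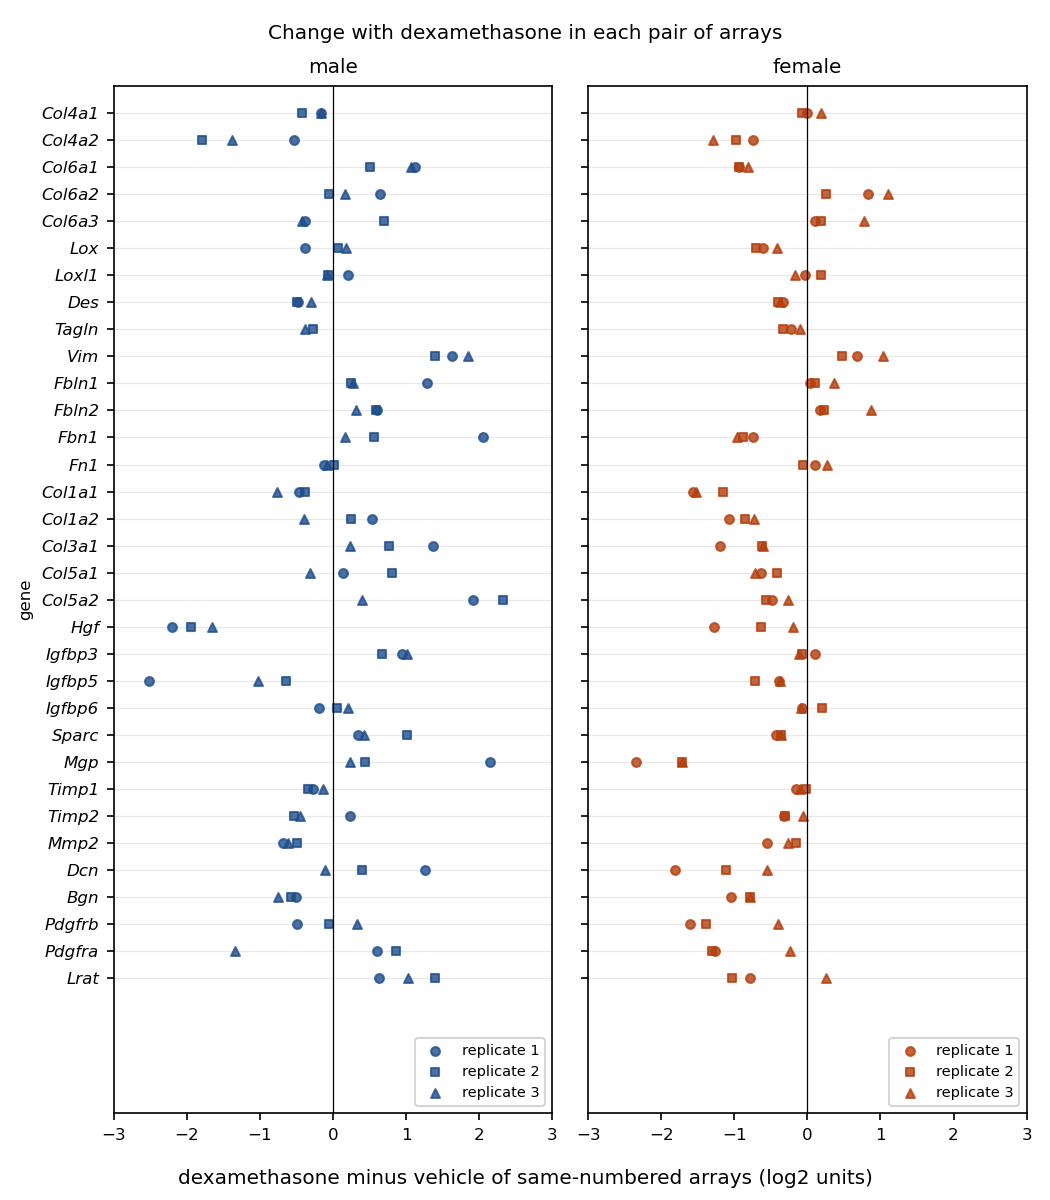
Dexamethasone minus vehicle for each pair of same-numbered arrays (x axis, log2 units; marker shape, replicate) for the 33 tested genes (y axis) in males (left) and females (right). In females 22 genes have all 3 points below 0, against 9 in males, and Vim has all 6 above 0.

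Counted by pair, 22 of 33 genes were lower with dexamethasone in all 3 female pairs (66.7%, against 30.9% of all genes) and 5 were higher in all 3 (15.2%, against 27.8%). In males 11 of the 32 genes with all arrays were higher in all 3 pairs (34.4%, against 19.1%) and 9 lower in all 3 (28.1%, against 28.0%). 8 genes were lower in all 6 pairs (Des, Hgf, Col1a1, Col4a2, Igfbp5, Bgn, Timp1 and Mmp2), against 14% of all genes. Vim, Fbln1 and Fbln2 were higher in all 6, against 9.97% of all genes. Hgf and Igfbp5 were each above background on only 5 of the 12 arrays. Second probes of Fbln1 and Mmp2 went the other way in males (-0.37 and 0.90, fit without pairs). In females these probes went the same way (0.45 and -0.98). 6 genes were higher in all male pairs and lower in all female pairs, Col3a1, Col5a2, Col6a1, Sparc, Mgp and Fbn1, a pattern shown by 2.5% of all genes; 0 members showed the reverse (3.81% of all genes). Male vehicle values were below background on at least 2 arrays for Col5a2, Col6a1 and Fbn1, while Col3a1, Sparc and Mgp were measured on all 12 arrays. Male pair 1 lay on slide 1 alone, where Mgp changed by 2.14, Col5a2 by 1.91, Col3a1 by 1.36 and Col6a1 by 1.12; female pair 3 lay on slide 3 alone, where they changed by -1.72, -0.27, -0.61 and -0.81.

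The difference between the responses did not pass for any of the 33 genes, where 0.105% of all genes passed (0.0754% higher and 0.0301% lower). An unadjusted p under 0.05 was found for 10 of the 33, a count that has no share of all genes beside it. The median difference of responses, female minus male, was -0.43 against 0.07 over all genes, but -0.07 without male dexamethasone replicate 1, -0.14 without male vehicle replicate 2 and -0.14 over probes above background on all 12 arrays. The most negative was Mgp (-2.87 ± 0.77, adjusted p = 0.14), followed by Col5a2 (-1.99 ± 0.85, adjusted p = 0.38) and Fbn1 (-1.79 ± 0.79, adjusted p = 0.40). With the pairs as a block none passed either, the adjusted p being 0.11 for Mgp and 0.095 for Col6a1. The comparison of the sexes in vehicle and both responses share the vehicle arrays, so their values are not independent.

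Replicates of a sex also differed among themselves in these genes, in both treatments alike. Male replicate 2 was the lowest of the 3 in vehicle and in dexamethasone for 13 of 32 genes (40.6%, against 16.5% of all genes), which include all 5 fibrillar collagen chains, Lox, Loxl1, Sparc and Des. Lox read 2.92, -0.45 and 1.73 in male vehicle and 2.54, -0.38 and 1.90 in male dexamethasone, and Sparc read 0.34, -2.62 and -1.44 and 0.68, -1.61 and -1.02. For Lox the gap between male replicates 1 and 2 was larger than any group difference listed above for it. Female replicate 3 was the lowest in both treatments for 15 of 33 genes (45.5%, against 16.5%), with smaller gaps: Col1a2 read 2.39, 2.36 and 1.25 in female vehicle and 1.32, 1.51 and 0.51 in female dexamethasone. Female replicate 2 was the highest in both for 12 (36.4%, against 16.4%) and the lowest in both for 0. The replicates were singled out after these values were seen. Whether same-numbered cultures shared an animal is not stated in the labels, and the part of cell makeup in this spread was not tested.

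**Figure D4:**
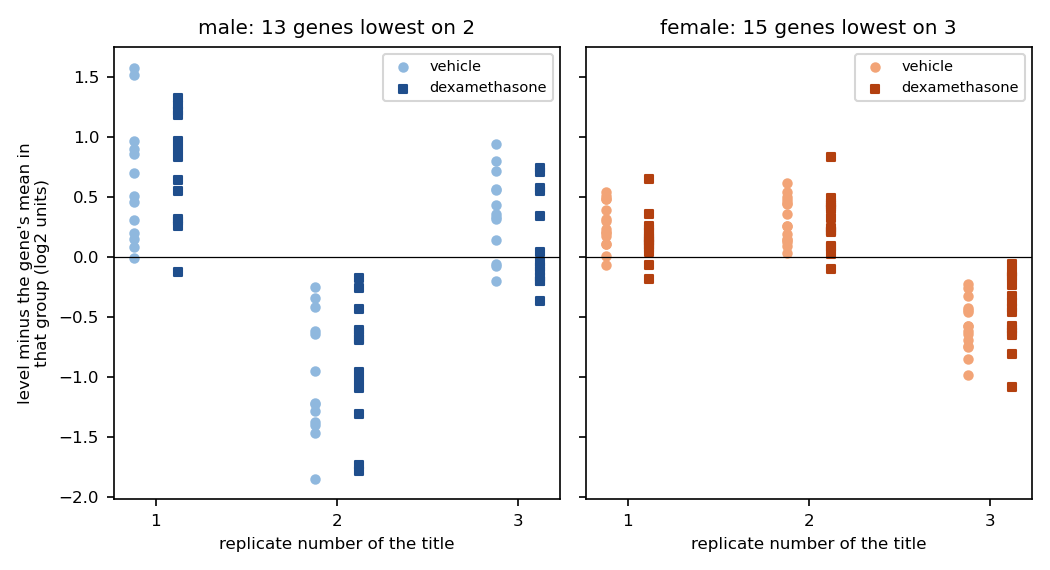
Level minus the gene's mean in its group (y axis, log2 units) by replicate number (x axis) for the 13 genes lowest on male replicate 2 in both treatments (left) and the 15 lowest on female replicate 3 in both (right); each point is 1 gene on 1 array, circles vehicle and squares dexamethasone. The genes were picked for this order, so the dip at that replicate is by choice; its size, which is larger in males, is what the plot adds.

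Genes of the same pathways, listed by name, are given as counts beside the shares of all genes that passed: 5.82% higher and 7.96% lower between the sexes in vehicle, 1.18% and 1.73% in dexamethasone, 5.21% and 4.88% in the male response and 3% and 1.13% in the female response. Of 35 other core matrix genes tested, 5 were higher in female vehicle and 1 lower, with a median difference of 0.23; among them Efemp2, the elastic fibre protein fibulin-4, was higher by 1.39 and Col18a1, a basement membrane collagen, was lower (-0.94). Collagen maturation enzymes gave 1 higher and 3 lower of 19 (median -0.18), and matrix receptors 1 higher and 3 lower of 20 (median -0.27). The TGF-beta pathway gave 4 higher and 0 lower of 25 (median 0.41), Fst and Tgfb1 by 1.48 and 1.29. Matrix proteases and their inhibitors gave 7 higher and 0 lower of 24 in vehicle (median 0.53) and 8 and 0 in dexamethasone (median 0.88). No male vehicle array was above background for 5 of those 7: Mmp10, Mmp13, Adamts9, Reck and Serpine2. Mmp3, stromelysin 1, was higher in females by 3.57 in vehicle and 3.07 in dexamethasone (adjusted p = 0.00028 and 0.0012). Between the sexes in dexamethasone, core matrix genes gave 3 higher and 1 lower, and maturation enzymes 1 and 1. Matrix receptors gave 0 and 0 there, and the TGF-beta pathway 3 and 0. In the male response, these 5 lists gave 0 higher and 1 lower, 0 and 2, 2 and 2, 1 and 3, and 2 and 2, in the order core matrix, maturation enzymes, matrix receptors, TGF-beta and proteases; in the female response they gave 0 and 1, 0 and 0, 1 and 0, 0 and 2, and 0 and 0. Among the lower male calls, the maturation enzyme Plod2 and both proteases, Adamts1 and Adamts5, had all 6 male values below background, and these 3 give no measured change.

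Markers of the cell types that a hepatocyte preparation could hold are given beside these results, and their part in them was not tested. Of 9 further stellate markers tested, 1 was higher and 1, Adamtsl2, lower in female vehicle, the latter with no array above background in either vehicle group. The higher one was Cygb, cytoglobin, a stellate cell globin, at least 7.36-fold (3.87, adjusted p = 0.00012), from -1.56 to -0.52 in female vehicle and below background in male vehicle. Cygb was also higher in female dexamethasone (1.55, adjusted p = 0.026) and fell with dexamethasone in females (-1.63, adjusted p = 0.017). The neural-type stellate markers Gfap and Ngfr were above background in no group. The summed level of the whole list (log2 of the sum of linear levels) ran from 7.26 to 7.89 in male vehicle, 6.93 to 6.97 in male dexamethasone, 7.17 to 7.53 in female vehicle and 7.11 to 7.26 in female dexamethasone. Portal fibroblast markers gave 0 calls of 7 between the sexes in vehicle, with sums of 1.47 to 2.00 in male and 0.94 to 1.57 in female vehicle. Of these 7, 1 was above background on all 3 male vehicle arrays and 3 on none, against 7 on all 3 in female vehicle. The 0 calls therefore do not show equal levels. Smooth muscle and pericyte markers gave 0 higher and 1 lower of 7 (6.63 to 7.21 and 5.95 to 6.52). Kupffer cell markers gave 1 higher of 12, the CSF1 receptor, and sums of 5.70 to 6.66 and 5.76 to 6.79. Endothelial markers gave 1 higher and 1 lower of 10 (0.14 to 1.76 and 0.84 to 1.77), cholangiocyte markers 1 higher and 1 lower of 9 (2.14 to 3.78 and 3.84 to 4.80), and mesothelial markers 1 higher of 3 (3.41 to 3.90 and 4.64 to 5.38). Detection on all 3 arrays was also lower in male than in female vehicle here. It was 2 against 10 of 11 endothelial, 3 against 9 of 10 cholangiocyte and 3 against 7 of 7 smooth muscle and pericyte markers. Hepatocyte markers gave 0 higher and 2 lower of 10, with sums of 11.04 to 11.27 in male and 10.41 to 10.76 in female vehicle. These ranges do not overlap. Of single genes, 17.9% had all female vehicle arrays below all male ones, and 31.2% did not overlap in either direction. In dexamethasone the sums were 10.66 to 10.83 in males and 10.63 to 10.76 in females, ranges that overlap.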

How the data were processed

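RNA of 12 cultures was hybridised to 12 one-colour arrays. The deposited array files hold spot intensity values that, per the file headers, Agilent Feature Extraction 9.5.3.1 (9.5 in the submitters' processing notes) had background-subtracted within each array, with no scaling between arrays; the authors' deposited value table holds the same intensity values (540216 of 540216 compared were equal). Spots marked as outliers were left out, spots of a probe were averaged as log2 values, and each array's 75th percentile was subtracted. The 30977 probes that every array of some group measured well above background were kept. A gene took its probe with the highest mean signal, and names came from the files and RefSeq. A 4-mean model was fitted to all 12 arrays with limma 3.58.1 in R 4.3.3 (lmFit, eBayes, two-sided), tested on simulated data first. Same-numbered arrays of a sex correlated in their deviations from the group means (0.27, 0.46 and 0.27 in males; 0.42, 0.26 and 0.34 in females), so pairs were also fitted as a block. The members and lists were chosen with earlier results of these data known. Members that passed, or whose groups did not overlap by at least 1 log2 unit, are given array by array. Alternatives varied the scaling, background correction, filter, probe choice, slide and replicate blocks, array weights and the arrays used. Arrays give no read depth; their number limits the precision.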

Additional observations from a re-analysis of the deposited data

Results flagged for a closer look

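Among the listed genes beside the members, Adamtsl2, a secreted protein that binds latent TGF-beta binding proteins, was the 1 gene whose response to dexamethasone differed between the sexes by the test of that difference: the female minus male difference of the responses was 3.83 log2 units (adjusted p = 0.049, limma, 3 arrays a group). Its levels were -4.18, -4.05 and -3.73 in female dexamethasone and below background on all 3 female vehicle arrays, at least 7.88-fold higher with dexamethasone; 1 of the 6 male arrays, dexamethasone replicate 2 at -6.03, was above background. The male response in that difference is therefore not measured, and the size of 3.83 rests on values below background with unequal limits of detection. The call was lost with the replicate block within sex, with normexp, and without female vehicle replicate 1 or 3 or any 1 of the female dexamethasone arrays.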

How the results depend on the processing

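The count of members higher in female vehicle (15) was 6 over probes above background on all 12 arrays and 6 over members above background on all 6 arrays compared (18 tested in each), and 4 with slide as a block. Of all genes, 1546 passed as higher in the main fit. Over probes above background on all 12 arrays 945 of 14805 did, and with slide as a block 46. The count of lower members (0) was 5 with normexp background correction, which moved the median of all genes to -0.38. It called Col6a3, Fn1, Hgf, Fbln2 and Igfbp5 as lower, among 10855 of all 26542 genes. Leaving out 1 array in turn gave 12 to 16 higher, where 767 to 1826 of all genes passed as higher. In dexamethasone the 4 higher members became 2 over probes above background on all 12 arrays, 0 with slide as a block, 12 with array weights (which also called 1 lower) and 3 to 5 with 1 array left out. Of all genes, array weights passed 2284 as higher and 2504 as lower in dexamethasone, against 313 and 458 in the main fit. Over probes above background on all 12 arrays 210 passed as higher, with slide as a block 8, and with 1 array left out 70 to 486. In males, the 1 higher member became 3 with quantile normalization (Vim, Pdgfrb and Lrat), 4 with the replicate block within sex and 0 within slide 1, which has 1 dexamethasone array; the 1 lower member became 0 with quantile normalization, normexp, probes above background on all 12 arrays, slide as a block, within slide 1, only the groups compared, or members above background on all 6 arrays, 3 with the replicate block over both sexes, 5 with the block within sex, and 1 to 2 with 1 array left out (2 without male vehicle replicate 3 or male dexamethasone replicate 1 or 2). In females, the 0 higher members became 1 with normexp, the replicate block over both sexes, the block within sex or within slide 3, 2 with array weights, and 0 to 2 with 1 array left out (2 without female vehicle replicate 2); the 2 lower ones became 0 with quantile normalization, no filter on dim probes, slide as a block or within slide 3, 1 with array medians, normexp or probes above background on all 12 arrays, 4 with only the groups compared or with the block within sex, 7 with array weights, and 0 to 2 with 1 array left out. Of all genes, 2276 passed as higher in males with quantile normalization, against 1382 in the main fit. In females array weights passed 2946 as higher and 2062 as lower, against 797 and 299 in the main fit. With only the groups compared, 1002 passed as lower in females. In the difference of responses, the 0 lower members became 1 with quantile normalization and 2 with no filter. Of all genes, 257 and 391 passed as lower in those 2 settings, against 8 in the main fit. The block within sex and the filter to the 6 arrays compared were chosen after seeing the data.

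With normexp the male response of Lrat (1.01) became 0 and the sex difference of Hgf in dexamethasone -0.21, each below background in at least 1 group. Members that had not passed changed sign in other settings too: with quantile normalization the male response of Pdgfrb became 1.84 (adjusted p = 0.012) and the sex difference of Hgf in vehicle 1.24 (adjusted p = 0.0029), and with slide as a block the male responses of Des and Col1a1 became 0.22 and 0.43. The causes of these changes were not tested, beyond the smaller number of members tested under the stricter filters. The replicate block over both sexes called 17 members higher in female vehicle, adding Des and Sparc, and 5 in dexamethasone, adding Vim. Of all genes, 2106 and 687 then passed as higher, against 1546 and 313 in the main fit. Values below background in male vehicle, the smaller share of spots above background on slide 1 and the 3 arrays a group limit these results.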
